A study of Oryza sativa with 12 samples.

Results

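Genes of potassium and sodium transport were followed in rice (Oryza sativa) plants of the mutant line osspt5-1#12 and of the wild-type cultivar Nipponbare (WT). The 8 members were chosen by locus identifier and are HKT1;1 (Os04g0607500), HKT1;5 (Os01g0307500), HKT2;1 (Os06g0701700), SOS1 (Os12g0641100), NHX1 (Os07g0666900), AKT1 (Os01g0648000), HAK1 (Os04g0401700) and HAK5 (Os01g0930400). By their identifiers HKT1;5, AKT1 and HAK5 lie on chromosome 1, HKT1;1 and HAK1 on chromosome 4, HKT2;1 on chromosome 6, NHX1 on chromosome 7 and SOS1 on chromosome 12. They are 8 of the 38034 identifiers in the deposited tables, and all 8 were read in at least 1 library. The 4 groups were osspt5-1#12 root, WT root, osspt5-1#12 shoot and WT shoot, with 3 RNA libraries each. Plants in vegetative growth were sampled. All grew in a chamber on 15 h days (28 °C) and 9 h nights (24 °C), and no salt or potassium treatment is named. The mutant is a single line described as depleted of OsSPT5-1, a subunit of a transcription elongation factor that travels with RNA polymerase II. The labels do not say how the line was made, how old the plants were or whether replicates came from different plants. P-values therefore rest on the variation among libraries, which may be partly technical.

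Plants take up potassium as a nutrient and keep sodium, which is toxic in excess, out of the cytosol. HKT proteins carry sodium, and some of them potassium as well, across the plasma membrane. Members of the HKT1 subfamily are known for removing sodium from the sap that reaches the leaves. SOS1 and NHX1 exchange sodium for protons at the plasma membrane and at the vacuole membrane. AKT1 is an inward potassium channel known from root cells, and HAK1 and HAK5 are high-affinity potassium transporters whose transcripts are known to rise when potassium is scarce.

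In root, HKT2;1 and HAK5 fell in the mutant, 7.61-fold and 5.46-fold in mean FPKM. Of 19 alternative ways of processing, the call of HKT2;1 was lost in 5 and that of HAK5 in 1. Both were lost when only the root groups were fitted. In shoot, HKT1;1 fell 4.26-fold, and its call held in all 19. No tested member was called higher in either tissue. SOS1 and HAK1 were lower in every mutant root library than in every WT root library but did not pass the test. HKT1;5 and AKT1 were read too rarely to be tested.

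Levels are given as FPKM, fragments per kilobase of gene length and per number of reads in the library, so that genes of different length can be compared. Whole reads were recovered from these values, and libraries held 10118071 to 15749857 reads. Replicates matched least in mutant root, with Pearson's r across genes of 0.877 to 0.92, against 0.961 to 0.965 in WT root. In shoot r was 0.962 to 0.971 between mutant libraries and 0.908 to 0.951 between WT libraries. The tissue labels were checked on 3 loci listed as root markers and 3 listed as shoot markers, and none of the 6 was at 0 in all libraries of a group. The summed root markers were at 228 to 902 FPKM in mutant root and 687 to 949 FPKM in WT root, and at 8.31 to 17.3 FPKM in shoot libraries. Of the 3 root markers, the lowest single mean was 28.7 FPKM in mutant root and 163 FPKM in WT root. The highest was 338 FPKM in mutant root and 439 FPKM in WT root. The summed shoot markers were at 1018 to 1447 FPKM in shoot libraries and 99.2 to 262 FPKM in root libraries.

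Tests were made with limma on log2(FPKM + 1) over all 12 libraries, and a change was called at an adjusted p under 0.05 (Benjamini-Hochberg over 25337 rows). Because 1 is added, log2 fold changes understate the change of genes at low FPKM. The test took rows that reached 1 FPKM in 3 or more libraries, which kept 6 of the 8 members. In root, 2 of the 6 were called lower and 0 higher. Among all rows tested 7% were called in root, 2.63% higher and 4.37% lower. In shoot 1 of the 6 was called lower and 0 higher, against 9.5% of all rows, 4.8% higher and 4.69% lower. Whether the members' shares differ from those of all rows was not tested.

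**Figure D1:**
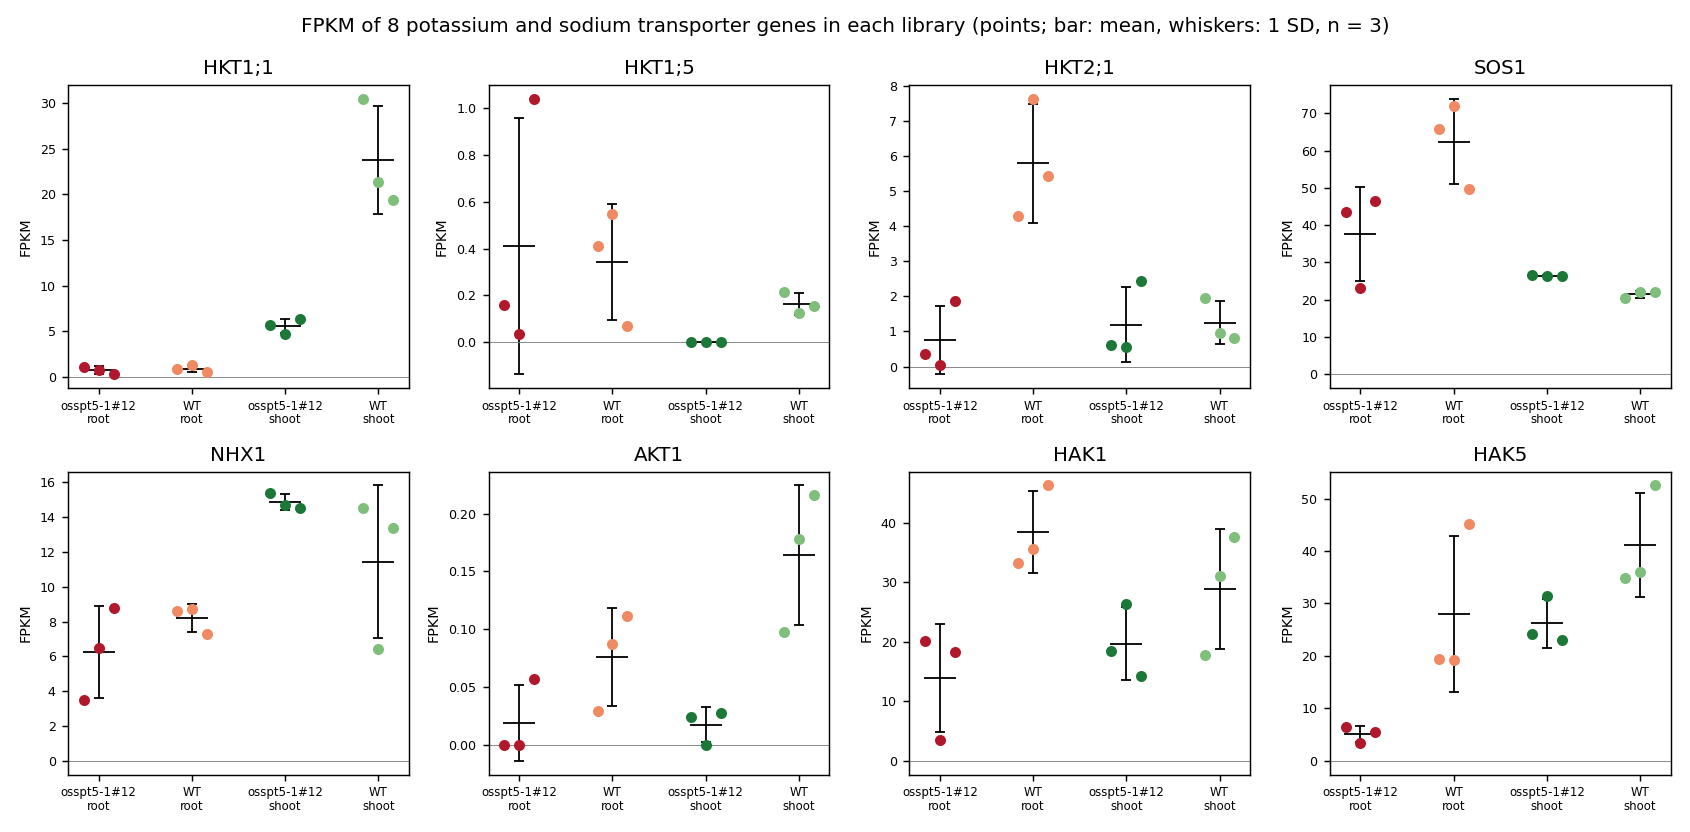
FPKM (vertical axis, a scale of its own in each panel) of the 8 genes in osspt5-1#12 root, WT root, osspt5-1#12 shoot and WT shoot; points are libraries, bars the mean and whiskers 1 SD (n = 3). HAK5 is lowest in mutant root without overlap, while HKT1;1, HKT2;1, NHX1 and HAK1 have their lowest mean there but overlap with another group. HKT1;1 stands far higher in shoot than in root, and the panels of HKT1;5 and AKT1 reach only 1.04 and 0.216 FPKM.

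Among the sodium carriers, HKT1;1 was a shoot transcript. It had 5.71, 4.69 and 6.31 FPKM in mutant shoot libraries 1, 2 and 3, against 30.5, 21.4 and 19.4 FPKM in those of WT shoot. All 3 mutant libraries lay below all WT libraries, and the mutant level rests on 462 reads in all. The means were 5.57 ± 0.822 FPKM in mutant shoot and 23.8 ± 5.97 FPKM in WT shoot (SD, n = 3 each). On the log2 scale the change was -1.89 with an SE of 0.26 (limma adjusted p = 0.00113), and 1.63% of all rows had a lower one. The exact two-sided permutation test over the 6 shoot libraries gave p = 0.1, the smallest that 3 against 3 allow. The call held under each of the 19 alternatives tried, with adjusted p between 0.000429 and 0.0179. In root HKT1;1 had 1.11, 0.777 and 0.294 FPKM in the mutant, against 0.901, 1.25 and 0.516 FPKM in WT. These values overlapped, and the log2 fold change of -0.14 (95% interval -0.71 to 0.43) did not pass the test (limma adjusted p = 0.797). By the RefSeq gene table (assembly ASM3414082v1), HKT1;1 has HKT1;4 as its direct neighbour, a related gene, and whether reads were split between them was not tested.

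HKT2;1, a carrier known for taking sodium into roots when potassium is low, was higher in root than in shoot in WT. It had 0.373, 0.0398 and 1.87 FPKM in mutant root, against 4.3, 7.63 and 5.43 FPKM in WT root. The mutant values came from 10, 1 and 54 reads and the WT values from 81, 192 and 134 reads. No mutant root library reached the lowest WT root library. The means were 0.761 ± 0.974 FPKM in mutant root and 5.79 ± 1.69 FPKM in WT root (SD, n = 3 each). On the log2 scale the change was -2.06 with an SE of 0.425 (limma adjusted p = 0.0181), and 1.79% of all rows had a lower one. With 0.1 added in place of 1 it was -3.50, and by limma-voom on recovered reads -4.08, both called (limma adjusted p = 0.042 and 0.0213). The size of the fall depended on single libraries, since the fold was 28 with mutant root library 3 left out and 5.16 with library 2 left out. The call ended without mutant root library 2 (limma adjusted p = 0.0517), without WT root library 2 or 3 (limma adjusted p = 0.0782 and 0.0681), with a replicate block (limma adjusted p = 0.0824) and when only the root groups were fitted (limma adjusted p = 0.111). In shoot HKT2;1 had 0.616, 0.546 and 2.43 FPKM in the mutant and 1.95, 0.971 and 0.821 FPKM in WT. The shoot groups overlapped, and the log2 fold change was -0.10 (95% interval -1.04 to 0.83, limma adjusted p = 0.919). The table of RefSeq genes places HKT2;4 directly beside HKT2;1, and a split of reads between them was not tested either.

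HKT1;5, the sodium carrier also known as SKC1 that limits sodium in rice shoots, was close to undetected in the row for this locus. The files do not pair the identifier with the name, and whether reads of the gene were counted elsewhere was not tested. The row had 0.161, 0.0343 and 1.04 FPKM in mutant root, from 5, 1 and 35 reads. In WT root it had 0.411, 0.547 and 0.0698 FPKM, from 9, 16 and 2 reads. The root groups overlapped widely, and most mutant root reads lay in library 3. In shoot there was no read in the 3 mutant libraries, against 7, 4 and 5 reads in those of WT. Taking 3 reads over the mutant shoot group as the limit that a count of 0 allows (0.036 FPKM), HKT1;5 was at least 4.56-fold lower in mutant shoot. That floor takes the WT shoot mean as fixed. With the counting error of both groups, the ratio of read rates had an exact 95% interval of 0 to 0.303, and neither covers variation between libraries. Without a filter on low values the difference was not called (limma adjusted p = 0.653).

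SOS1, which exports sodium from the cell, had the highest mean of the 8 genes in mutant root, WT root and mutant shoot. In root it had 43.4, 23.2 and 46.4 FPKM in mutant libraries, against 65.7, 71.9 and 49.6 FPKM in WT libraries. The groups did not overlap, although mutant library 3 and WT library 3 lay close together. The means were 37.7 ± 12.6 FPKM in mutant root and 62.4 ± 11.5 FPKM in WT root (SD, n = 3 each), and the log2 fold change of -0.76 (SE 0.237) did not pass the test (limma adjusted p = 0.0801). It passed without mutant root library 1 or 3 (limma adjusted p = 0.0405 and 0.0395) and was -0.45 without mutant root library 2 (limma adjusted p = 0.134). In shoot the order was the opposite, with 26.5, 26.4 and 26.2 FPKM in the mutant and 20.3, 22 and 22 FPKM in WT. Every mutant shoot library stood above every WT shoot library, by a log2 fold change of 0.29 that did not pass the test (95% interval -0.24 to 0.81, limma adjusted p = 0.49). That interval uses a spread shared with the more variable root libraries, and with only the shoot groups fitted the limma adjusted p was 0.0615. All rows had a median log2 fold change of 0.13 in shoot, and with median-ratio factors, which moved that median to -0.01, SOS1 was at 0.10.

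NHX1, the vacuolar exchanger, overlapped between the genotypes in both tissues. It had 3.48, 6.51 and 8.76 FPKM in mutant root and 8.61, 8.73 and 7.28 FPKM in WT root. In shoot the 3 mutant libraries lay between 14.5 and 15.4 FPKM, and those of WT at 14.5, 6.43 and 13.4 FPKM. WT shoot library 2 was thus low for this gene, and mutant root library 1 was low in root. The log2 fold changes were -0.41 in root (95% interval -1.12 to 0.29, limma adjusted p = 0.471) and 0.42 in shoot (95% interval -0.28 to 1.12, limma adjusted p = 0.447), so a change of 2-fold in one direction lies within each interval.

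**Figure D2:**
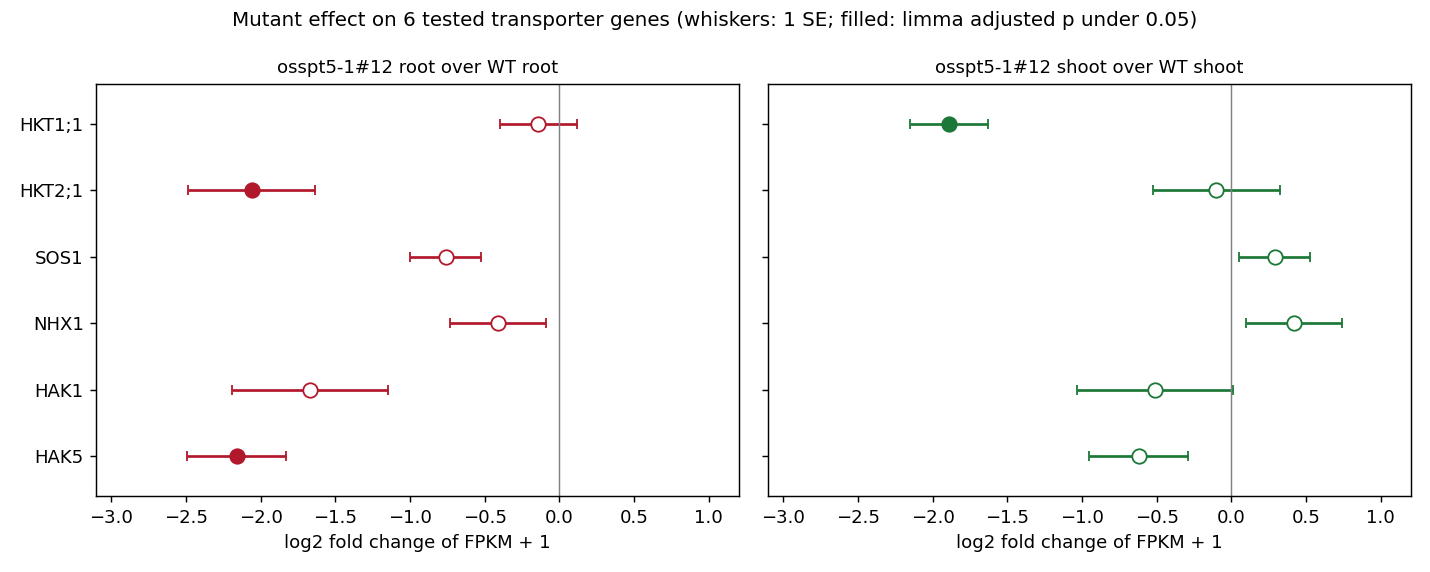
Log2 fold change of FPKM + 1 (horizontal axis) of the 6 tested genes, osspt5-1#12 root over WT root on the left and osspt5-1#12 shoot over WT shoot on the right; whiskers are 1 SE and filled points have a limma adjusted p under 0.05. The filled points are HKT2;1 (-2.06) and HAK5 (-2.16) in root and HKT1;1 (-1.89) in shoot.

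Of the potassium transporters, HAK5 gave the lowest adjusted p of the members in root. It had 6.47, 3.37 and 5.52 FPKM in mutant root, against 19.4, 19.3 and 45.1 FPKM in WT root. Every mutant root library lay far below every WT root library, and WT root library 3 stood above the other two. The means were 5.12 ± 1.59 FPKM in mutant root and 27.9 ± 14.8 FPKM in WT root (SD, n = 3 each). On the log2 scale the change was -2.16 with an SE of 0.33 (limma adjusted p = 0.00382), with 1.54% of all rows lower still, and the exact permutation p was 0.1, the smallest possible. The call held with each library left out, when the fold ranged from 3.78 to 6.3, and ended when only the root groups were fitted (limma adjusted p = 0.0899). The spread behind the call was shared with less variable shoot libraries. On the log2 scale the SD was 0.40 in mutant root and 0.68 in WT root, against 0.24 in mutant shoot and 0.32 in WT shoot. In shoot HAK5 had 24.1, 31.5 and 23 FPKM in the mutant, against 34.9, 36 and 52.5 FPKM in WT. Here too all mutant libraries lay below all WT libraries, but the log2 fold change of -0.62 did not pass the test (95% interval -1.35 to 0.11, limma adjusted p = 0.271).

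HAK1 had 20.1, 3.49 and 18.3 FPKM in mutant root, against 33.3, 35.7 and 46.3 FPKM in WT root. The groups did not overlap, and mutant root library 2 was far below the other two. The means were 14 ± 9.13 FPKM in mutant root and 38.4 ± 6.93 FPKM in WT root (SD, n = 3 each). The log2 fold change of -1.67 (SE 0.521) did not pass the test (limma adjusted p = 0.0793). It was -0.95 without mutant root library 2 (limma adjusted p = 0.123) and -2.07 without mutant root library 1, where it passed (limma adjusted p = 0.0295). In shoot HAK1 had 18.5, 26.3 and 14.3 FPKM in the mutant and 17.8, 31.1 and 37.7 FPKM in WT, which overlapped. The shoot log2 fold change was -0.51 (95% interval -1.66 to 0.64, limma adjusted p = 0.591).

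AKT1 had at most 11 reads in any library, although channels of this type are known from roots. The row held 0, 0 and 3 reads in mutant root libraries and 1, 4 and 5 reads in WT root libraries. In shoot it held 1, 0 and 1 reads in mutant libraries, against 5, 9 and 11 reads in WT libraries. The mutant shoot counts all lay below the WT shoot counts. The ratio of read rates was 0.0936 in shoot (exact 95% interval 0.0107 to 0.375) and 0.255 in root (0.0451 to 0.99), intervals that cover counting error only. Without a filter on low values neither difference was called (limma adjusted p = 0.0665 in shoot and 0.474 in root). The deposited tables hold 1 row for this locus, and whether its reads were counted elsewhere was not tested.

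**Figure D3:**
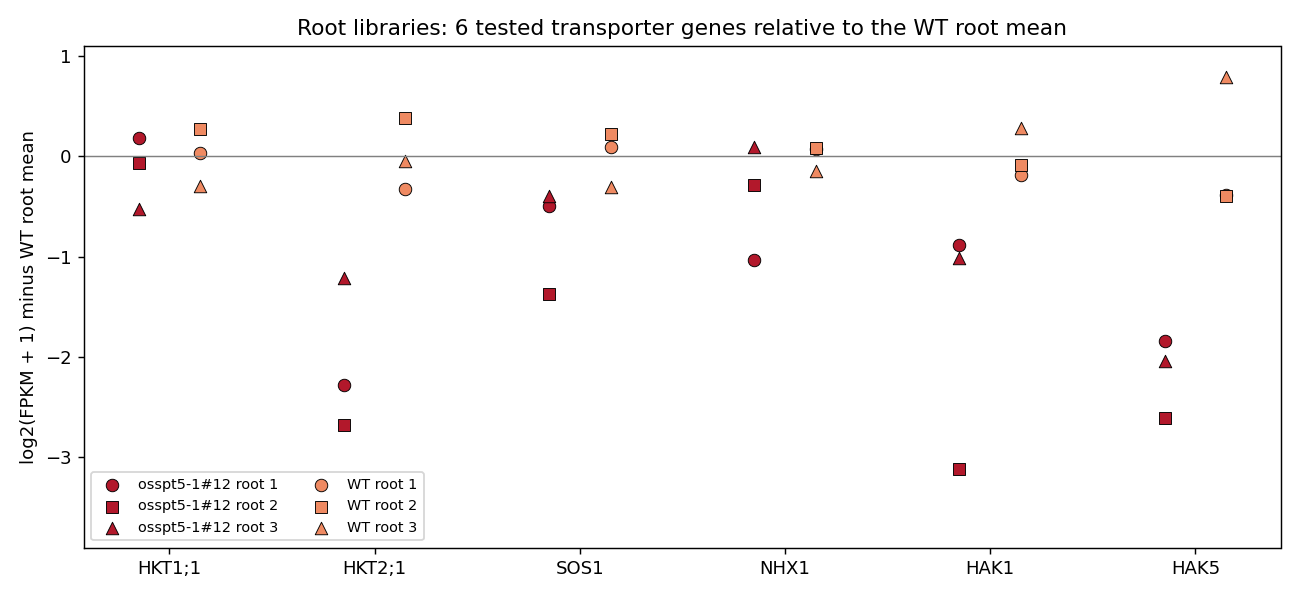
Log2(FPKM + 1) of each root library minus the WT root mean (vertical axis) for the 6 tested genes; symbols are libraries, osspt5-1#12 left of WT. Mutant root library 2 (square) is the lowest library of its group for 4 of the 6 genes and reaches -3.12 for HAK1, while the mutant libraries of HKT1;1 (-0.53 to 0.18) and NHX1 (-1.03 to 0.09) overlap with WT.

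Mutant root library 2 was the lowest of the 3 mutant root libraries for 4 of the 6 tested genes, HKT2;1, SOS1, HAK1 and HAK5. The share of all rows that were lowest in that library was not examined. The root marker sum was 266, 228 and 902 FPKM in mutant root libraries 1, 2 and 3, against 874, 949 and 687 FPKM in WT root libraries. It was thus low in mutant root libraries 1 and 2 and at the WT level in library 3. HKT2;1, SOS1 and NHX1 had their highest mutant root value in library 3, as had the rarely read HKT1;5 and AKT1. HKT1;1, HAK1 and HAK5 had theirs in library 1. Every tested gene except NHX1 lay below every WT root library in mutant root library 3. HAK5 was at 5.52 FPKM there, against 19.3 FPKM or more in WT root. HAK1 was at 18.3 FPKM, against 33.3 FPKM or more in WT root. SOS1 was at 46.4 FPKM, close to the lowest WT root value of 49.6 FPKM. NHX1, at 8.76 FPKM, was not below WT root. These mutant values come from that library alone. Whether this marker difference has a part in the root results was not tested. In bulk RNA, fewer cells of a type and less RNA per cell cannot be told apart.

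**Figure D4:**
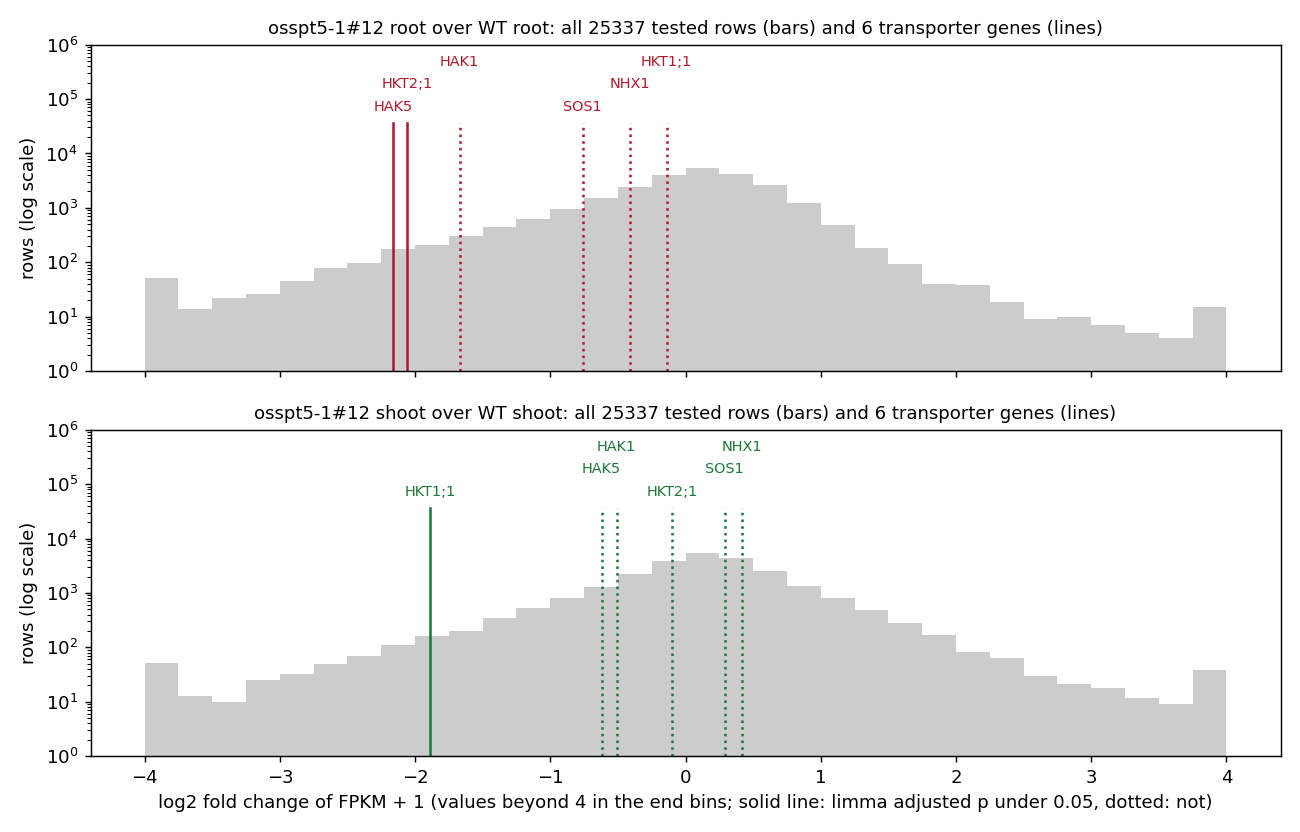
Number of rows (vertical axis, log scale) by log2 fold change of FPKM + 1 (horizontal axis), osspt5-1#12 over WT, in root (top) and shoot (bottom), for all 25337 tested rows; lines mark the 6 genes, solid where called. HAK5 and HKT2;1 in root and HKT1;1 in shoot lie in the lower tail, with 1.54%, 1.79% and 1.63% of rows below them.

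The number of tested members whose mutant and WT libraries did not overlap was 4 lower and 0 higher in root, and 2 lower and 1 higher in shoot. Among all rows 11.6% were lower and 12.3% higher without overlap in root, and 15% were lower and 23.9% higher in shoot. Absence of overlap alone was thus common in these data.

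A difference in effect between the tissues was called for 1 of the 6 tested members, against 3.52% of all rows, 1.55% higher and 1.98% lower in root. For HKT1;1 the effect in root minus that in shoot was 1.76 on the log2 scale (SE 0.367, limma adjusted p = 0.027). Leaving out WT root library 1 or 3, any 1 of the mutant shoot libraries, or WT shoot library 1 or 2 ended the call, at limma adjusted p from 0.0564 to 0.081. Its mean level was 0.726 FPKM in mutant root and 0.888 FPKM in WT root, close to the 1 that was added before taking logs. With 0.1 added instead, the difference was 1.72 and was not called (limma adjusted p = 0.203). The differences of HKT2;1 (-1.95), HAK5 (-1.54) and SOS1 (-1.04) did not pass the test (limma adjusted p = 0.116, 0.111 and 0.132), although HKT2;1 passed without mutant root library 3 (-2.37, limma adjusted p = 0.0324). A tissue in which HKT2;1, HAK5 or SOS1 responds alone is therefore not shown by these libraries.

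**Figure D5:**
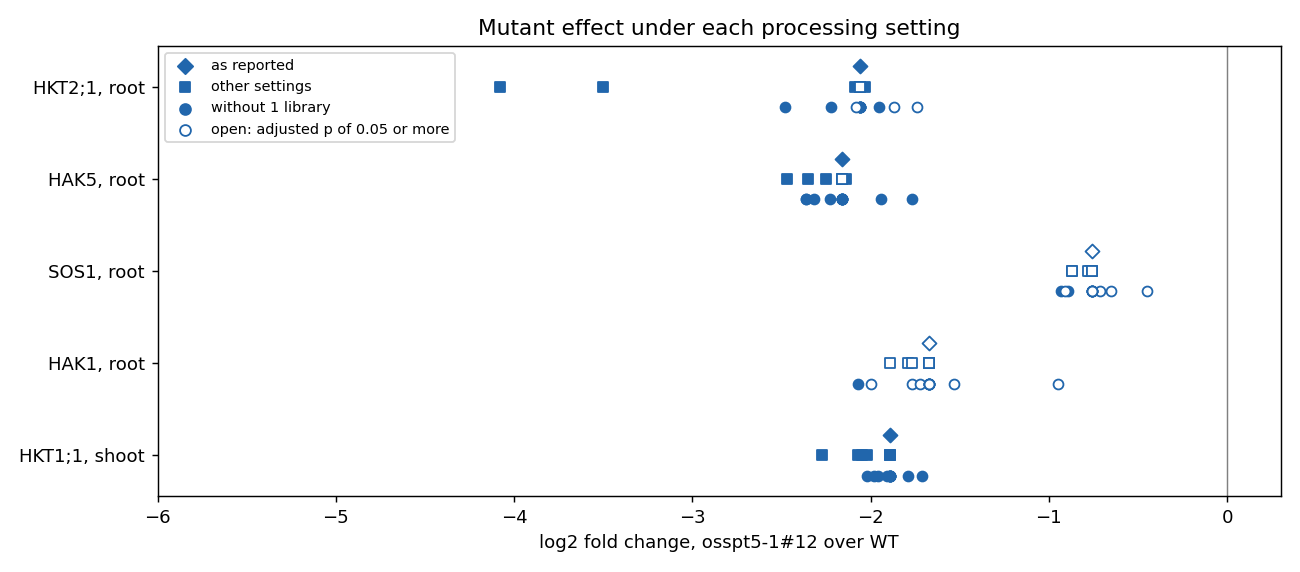
Log2 fold change of osspt5-1#12 over WT (horizontal axis) for 5 differences under each setting; diamonds are the reported value, squares other settings and circles fits without 1 library, filled where the limma adjusted p was under 0.05. All values lie below 0; every HKT1;1 point in shoot is filled, and the fits of HKT2;1 in root reach -4.08 with limma-voom on recovered reads.

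The genes also differed between the tissues. In WT, HKT1;1 was lower in root than in shoot by 26.8-fold in mean FPKM (log2 change -3.71, limma adjusted p = 2.42e-06). HKT2;1 was higher in WT root by 1.60 (SE 0.425, limma adjusted p = 0.0134) and SOS1 by 1.48 (SE 0.237, limma adjusted p = 0.000596). For HKT2;1 the call ended without WT root library 2 (limma adjusted p = 0.0553). These are 3 of 6 tested members, against 34.3% of all rows called between WT root and WT shoot, 17.8% higher and 16.5% lower in root. Without overlap, 2 members were higher and 1 lower in WT root, against 30.2% and 23% of all rows. In the mutant, 3 of 6 were called as well, against 30.6% of all rows (13.9% higher and 16.7% lower in root), and all 3 were lower in root. These 3 also had no overlap, as had 22.1% of all rows in that direction and 19.2% in the other. They were HKT1;1 (log2 fold change -1.95, limma adjusted p = 0.000256), HAK5 (-2.17, limma adjusted p = 0.000611) and NHX1 (-1.20, limma adjusted p = 0.0156, or 0.0502 without mutant shoot library 1). HKT2;1 and SOS1 were not called between the tissues in the mutant, at -0.35 and 0.44 (limma adjusted p = 0.567 and 0.186), but SOS1 was without mutant root library 2 (0.75, limma adjusted p = 0.0065). These comparisons share libraries with those between mutant and WT.

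Ranked by mean FPKM, WT root held SOS1, HAK1, HAK5, NHX1, HKT2;1, HKT1;1, HKT1;5 and AKT1, in falling order. There the libraries of HAK1 and HAK5 overlapped, as did those of NHX1 and HKT2;1 and the last 3 genes in turn. In mutant root the order was SOS1, HAK1, NHX1, HAK5, HKT2;1, HKT1;1, HKT1;5 and AKT1, with gaps below SOS1 and below HAK5 and overlap between all other neighbours. In WT shoot HAK5, HAK1, HKT1;1 and SOS1 led with overlapping libraries, and in mutant shoot SOS1, HAK5, HAK1 and NHX1 did. HKT1;1 ranked below NHX1 in mutant shoot, at 5.57 FPKM, and above it in WT shoot, at 23.8 FPKM. In mutant shoot its libraries overlapped with neither neighbour.

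A further 24 loci had been listed from general knowledge as belonging to potassium and sodium transport, regulators as well as transporters. The files do not name them, so they are given by identifier only, and 20 of them passed the filter. In root 1 fell and 0 rose, or 5% of the 20 against 7% of all rows, with a median log2 fold change of -0.13 over the 20, against 0.06 over all rows. The root locus was Os07g0150700, with 85.8, 77.8 and 150 FPKM in mutant libraries, against 266, 295 and 311 FPKM in WT libraries (log2 fold change -1.53, limma adjusted p = 0.00529). This locus was listed as a regulator, not as a transporter, and was well above all members in level. In shoot 4 fell and 0 rose, or 20% of the 20 against 9.5% of all rows, with a median of -0.26 against 0.13. Os02g0245800 had 4.33, 5.04 and 4.26 FPKM in mutant shoot, against 16.6, 13.3 and 18.6 FPKM in WT shoot (log2 fold change -1.62, limma adjusted p = 0.00149). Os05g0428700 averaged 3.98 ± 0.692 FPKM in mutant shoot and 10.3 ± 1.72 FPKM in WT shoot (SD, n = 3 each), 2.58-fold lower in the mutant (limma adjusted p = 0.00469). Os02g0175000 and Os06g0606000, the latter also listed as a regulator, fell 3.24-fold and 1.56-fold (limma adjusted p = 0.013 and 0.0499). The list was written with results of these data known and gives no more than these counts.

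For the 3 members with the highest mean level, the locus of most similar pattern was sought among 22085 other locus rows, by Pearson's r of log2(FPKM + 1) over 12 libraries. SOS1 was most like Os10g0476300 (r = 0.98), which averaged 2.8, 4.97, 1.46 and 1.17 FPKM in mutant root, WT root, mutant shoot and WT shoot. HAK1 was most like Os01g0713200 (r = 0.955), with 98.4, 350, 164 and 269 FPKM in the same order of groups. HAK5 was most like Os09g0472900 (r = 0.964), with 0.934, 35.1, 29.2 and 129 FPKM. The 12 points share tissue and genotype groups and the best of many rows was taken, so these values describe the pattern only.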

How the data were processed

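For each shoot or root library, 2 µg of total RNA went into a NEBNext Ultra kit, per the labels' protocols. Strand is not kept by this kit, and reads of overlapping antisense transcripts cannot be told apart. Deposited values are FPKM for each library, as the file headers state. HTSeq 0.6.0, HISAT2 2.1.0, Bowtie2 2.2.3 and build IRGSP-1.0 are listed, with no roles, per the submitters' processing notes. The tables list 34948 rows in root and 35395 in shoot, not all of them gene loci, and a row missing from a tissue was set to 0. Only 1 of 38034 identifiers matched the RefSeq table of 39387 entries. Member names were therefore those paired with the identifiers when the genes were chosen, and 6 of the 8 names occur in that table. The mutated gene's own level was not analysed here, and no sequences are shown.

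Read numbers were recovered from the step between low FPKM values of a locus. All 38034 rows came out whole within 0.002 reads, and 98.4% of implied lengths were whole bases within 0.05. At the low end, 3 reads of a member correspond to between 0.0301 and 0.159 FPKM per library. Tests used limma 3.58.1 in R 4.3.3 (limma-trend, log2(FPKM + 1), a mean per group, one spread per row shared by all groups) and exact permutation. The procedure was tested on simulated data. Members, lists and tests were chosen with earlier results of these data known. All 8 members were named, and the rows of similar pattern by the rule given with them. Alternatives were a pseudocount of 0.1, no filter, median-ratio factors, quantile normalization, only the compared groups, limma-voom on recovered reads with TMM factors, a replicate block and each library left out.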

Additional observations from a re-analysis of the deposited data

Results flagged for a closer look

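For HKT1;1 a difference between the tissues in the effect of the mutation was called, but the call was lost in 10 of 18 alternatives. The effect in root minus that in shoot was 1.76 on the log2 scale (limma adjusted p = 0.027), from log2 fold changes of -0.14 in root and -1.89 in shoot. The libraries of mutant and WT did not overlap in shoot and overlapped in root. This was the only one of the 6 tested members for which that difference was called. Over those alternatives the adjusted p ran from 0.0131 to 0.214, and the difference itself from 1.57 to 1.95. It was not called with a pseudocount of 0.1 (adjusted p = 0.203), with limma-voom (0.214) or with a replicate block (0.0946), nor in 7 of the 12 fits without 1 library.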

How the results depend on the processing

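Of 564 values of single members under alternatives, 533 kept direction and side of the threshold, 19 lost the call, 6 gained one and 6 changed sign. In root 2 members were called, with 0 when only the root groups were fitted and 1 with a replicate block (HAK5), and 1 to 4 when 1 library was left out. For the difference between tissues 1 was called, with 0 under a pseudocount of 0.1, limma-voom or the replicate block, and 0 to 2 when 1 library was left out. The call of HKT1;1 in that difference was lost on leaving out WT root library 1 or 3, any 1 mutant shoot library, or WT shoot library 1 or 2. The member counts in shoot and between tissues stayed within 1.5 times.

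Signs turned only for values that had not passed: HKT1;1 in root was 0.05 without mutant root library 3, HKT2;1 in shoot was 0.07, 0.10 and 0.11 without mutant shoot library 1 or 2 or WT shoot library 1, and between mutant tissues HKT2;1 was 0.02 without mutant shoot library 3 and HAK1 0.01 without mutant root library 2. With 1 library left out these 4 ran from -0.30 to 0.05, -0.48 to 0.11, -0.78 to 0.02 and -1.11 to 0.01. HKT2;1 between WT tissues was not called with a pseudocount of 0.1 (adjusted p = 0.0772) or without WT root library 2 (0.0553), nor NHX1 between mutant tissues without mutant shoot library 1 (0.0502). HAK5 between WT tissues was called without WT root library 3 (0.0184).

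Over all rows, 1774 calls in root became 312 with only the root groups, 566 with the block and 607 to 4553 without 1 library, the highest without mutant root library 1. In shoot 2406 became 1189 with the block and 1067 to 3618, and for the difference between tissues 893 became 522, 297 and 233 with the pseudocount, limma-voom and the block and 428 to 1925. Same-numbered mutant and WT libraries of a tissue did not deviate together (r of -0.274 to -0.111 in root, -0.116 to 0.141 in shoot). The numbers are thus not shown to pair the genotypes. Whether same-numbered root and shoot libraries deviate together was not tested. The causes were not tested. HKT1;5 and AKT1 had too few reads to pass the filter.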
